A study of Rattus norvegicus with 93 samples.

Results

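Healing of the rat skull roof was compared between small and large bone defects 21 days after surgery. The comparison rests on the 12 arrays whose titles give day 21, 6 from 4 mm defects and 6 from 8 mm defects, out of 93 arrays in the series. The other 81 arrays cover days 1 to 14 and serve here to estimate the spread and to set day 21 against earlier healing. All animals were male rats aged 12 weeks, with no strain, transgene or drug named in the labels. In both groups a trephine removed a disc of calvarial bone and left the dura mater, the membrane over the brain, in place, and the closed wound then healed untreated. The design text marks 8 mm as a critical-size defect and 4 mm as none. For harvest, the plug of bone and repair tissue was cut at the diameter of the original defect, so the harvested area also differs between the groups. Each array holds RNA of 1 defect, and the labels do not say whether any 2 defects were made in the same rat.

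A critical-size defect is one that does not bridge with bone by itself, whereas a smaller defect of the same bone does. Calvarial bone forms without a cartilage stage: mesenchymal cells from the dura, the bone margin and the periosteum become osteoblasts, which lay down type I collagen and then mineral. Ionotropic glutamate receptors, to which the NMDA receptor subunit Grin2d and the AMPA receptor subunit Gria3 belong, are best known from synapses and have also been described in bone cells. Per2 is a repressor in the circadian clock, which runs in bone cells as in most tissues.

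Values are log2 of the deposited ratios. For 87.8% of the 41090 probes the median over the 93 arrays is 1, so a log2 value of 0 is the middle of the series for that probe, and levels cannot be compared between genes. The lowest deposited ratio is 0.01, or -6.64 on the log2 scale, and 13.4% of the values of all probes lie at this floor. Floor values cannot be ranked, and the size of any difference that involves them depends on where the floor was set. Of 15975 genes, 7335 were above it on all 12 day 21 arrays. The share of genes at the floor ran from 11.8% to 19.7% on the 4 mm arrays and from 16.6% to 21.4% on the 8 mm arrays.

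Brain markers separated the 4 mm arrays. The mean log2 ratio of 46 neuron, astrocyte and myelin genes, called the brain score here, was 2.70 for rat 10, 3.67 for rat 11 and 3.24 for rat 15 of the 4 mm group. It was -0.78, -0.74 and -0.06 for 4 mm rats 12, 13 and 14, and between -0.87 and -0.24 on the 6 arrays of 8 mm defects. The 3 high arrays thus stood above the other 9, which overlapped. Of 21 neuron markers measured, 16 were higher on each of these 3 arrays than on any of the other 9, as were 6 of 10 astrocyte markers and 6 of 15 myelin markers, beside 7.25% of all genes. These markers make up the score that set the 3 arrays apart, so their split is built in and is no separate evidence. Stmn3, which encodes a neuronal microtubule regulator, reached 9.42 to 9.91 on the 3 arrays and at most 4.63 on the others. Mbp, the gene of myelin basic protein, lay between 4.54 and 6.17 on the 3 arrays and between -2.25 and 2.90 on the others. Brain scores above 2 also occurred on 5 of the 81 arrays of other days. These were 1 array of 4 mm defects, at day 14, and of 8 mm defects 1 at day 5, 2 at day 7 and 1 at day 14. Results are therefore given with all 12 arrays and without these 3, and some also with the brain score as a covariate in the fit. The part of brain RNA in them was otherwise not tested. In bulk RNA, fewer cells of a type and less RNA per cell cannot be told apart.

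**Figure D1:**
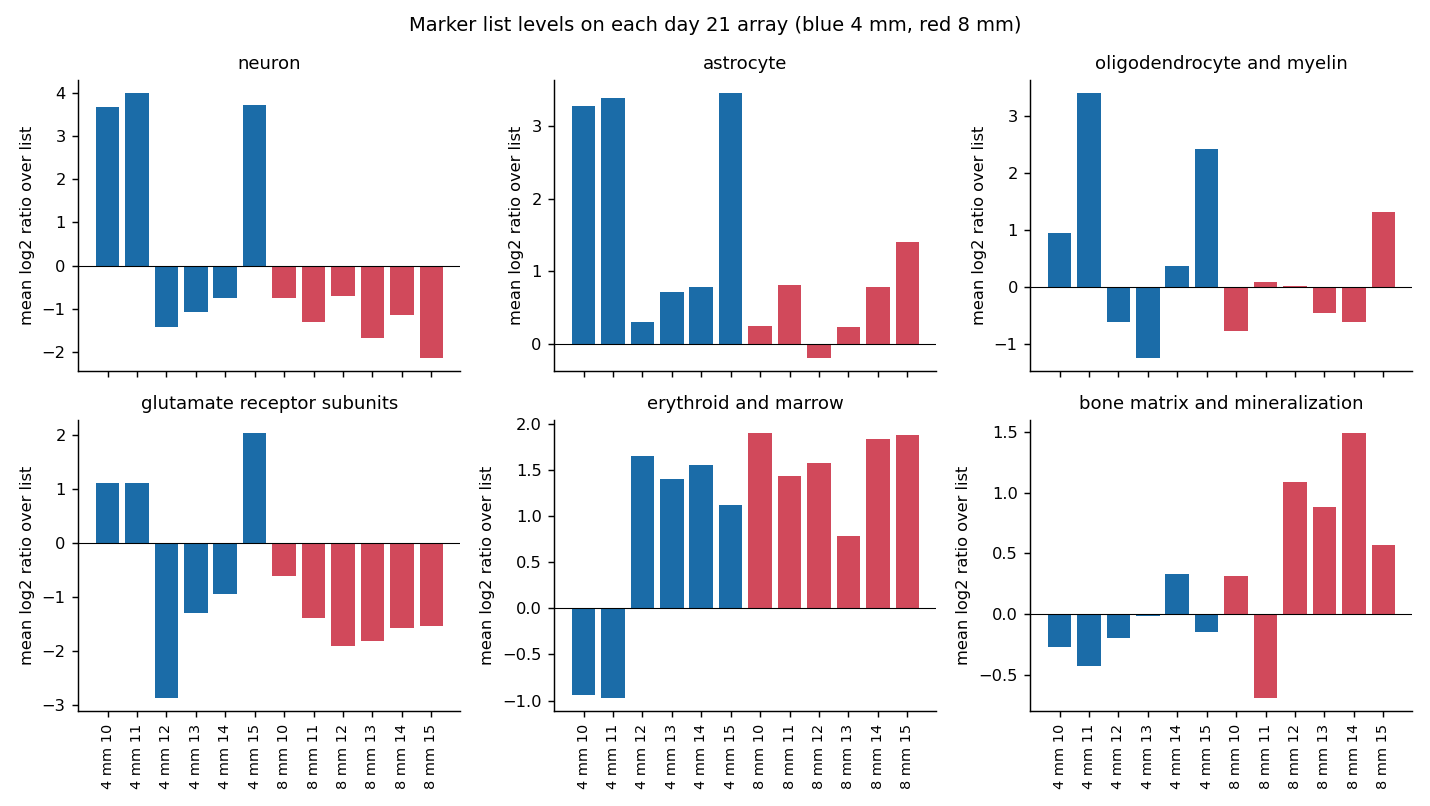
Mean log2 ratio over the measured members of 6 marker lists (vertical axis) on each of the 12 day 21 arrays (horizontal axis, defect size and rat number), with 4 mm in blue and 8 mm in red. The neuron list stands at 3.68, 4.00 and 3.73 on 4 mm rats 10, 11 and 15 and at most at -0.70 on the other 9 arrays, while the erythroid list is at -0.94 and -0.97 on 4 mm rats 10 and 11 and above 0 on the others.

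With all 12 arrays, 86 genes were higher and 297 lower in 8 mm than in 4 mm defects at an adjusted p under 0.05, 383 of 15975 genes or 2.4% (0.538% higher and 1.86% lower). The median over all genes was -0.20, so 8 mm arrays were slightly lower across the table. Without the 3 arrays of high brain score 146 genes (0.914%) were called, 99 higher (0.62%) and 47 lower (0.294%). Of these 146, 67 were among the 383, namely 29 of the 86 higher and 38 of the 297 lower genes. The direction was the same without the 3 arrays for all 383 genes, with a median of -2.84 in place of -3.21 for the lower ones and of 2.71 in place of 2.39 for the higher ones. The 383 genes were called on arrays that include the remaining 9, so the shared direction was favoured by selection and is no separate support. Among the 297 lower genes, 90 (30.3%) were higher on each of the 3 arrays than on any of the other 9, against 1158 (7.25%) of all genes. The 297 were called for higher values in the 4 mm group, to which the 3 arrays belong, so selection favours the larger share. The call depended on the spread borrowed from other days: a fit of the 12 arrays alone called 6 genes, and 1650 at an unadjusted p under 0.05. With all arrays kept and the brain score as a covariate, 269 genes were called, 57 higher and 212 lower, and 214 of them were among the 383. After quantile normalization 11 genes passed, and with each array centred 742, of which 301 (40.6%) were higher against 22.5% with the main fit. Of 39 called genes named here, 1 (Thy1) passed after quantile normalization and 6 passed in the fit of the 12 arrays alone.

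**Figure D2:**
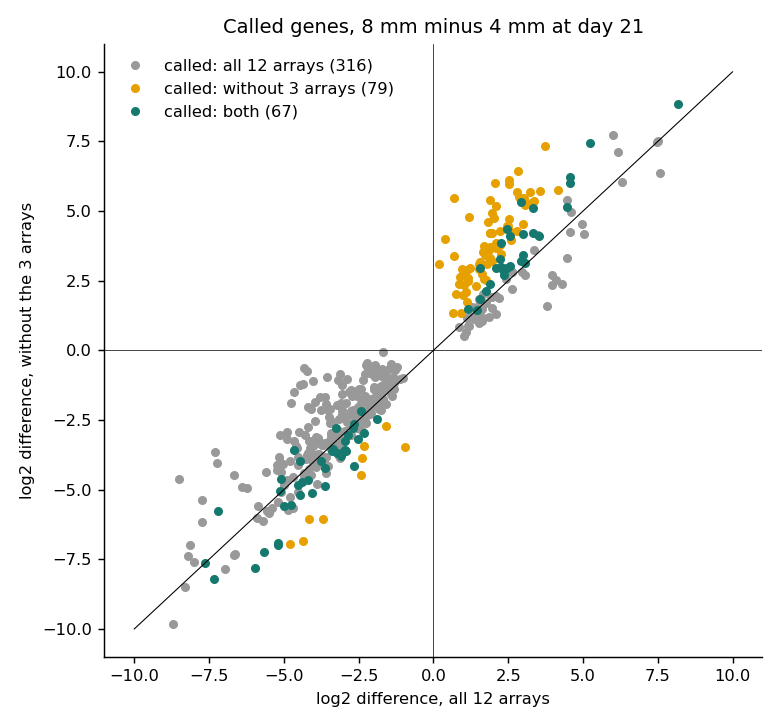
Log2 difference, 8 mm minus 4 mm, of each called gene with all 12 arrays (horizontal axis) and without the 3 arrays of brain score above 2 (vertical axis), with the diagonal of equal values. Green marks the 67 genes called both ways, grey the 316 called only with all arrays and yellow the 79 called only without the 3, and no point lies in a quadrant of opposite signs. The 2 fits share arrays and the genes were picked by these fits, which favours equal signs.

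Among 99 called genes above the floor on all 12 arrays, 38 were higher and 61 lower in 8 mm defects. The values of the groups did not overlap at all for 16 of the 38 and 13 of the 61; of all 7335 genes above the floor, 2.15% were non-overlapping, 0.859% with 8 mm higher and 1.3% with 8 mm lower. When the 3 arrays were left out, 8 of the 38 higher genes and 0 of the 61 lower genes were still called. Over all calls, floor values included, 29 of the 86 higher and 38 of the 297 lower genes were. Among the 61, 33 were higher on each of the 3 arrays than on any of the other 9.

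The glutamate receptor list held members that moved both ways, with 1 of 24 measured subunits higher, 2 lower and 21 not past the test, beside 0.538% of all genes called higher and 1.86% called lower. Grin2d, an NMDA receptor subunit, was between -1.28 and 0.43 in 4 mm defects (median -0.74) and between 1.19 and 1.90 in 8 mm defects (median 1.65). All 6 arrays of 8 mm lay above all 6 of 4 mm, and the 3 arrays of high brain score, at -1.28, -0.96 and 0.33, were spread among the other 4 mm arrays. The means were -0.50 ± 0.72 (SD, n = 6) and 1.58 ± 0.27 (SD, n = 6), a difference of 2.08 ± 0.44 (SE) or 4.23-fold, with an adjusted p of 0.00471. On the 9 arrays left the difference was 1.95 ± 0.54 (SE) and the adjusted p 0.0566, short of the threshold. Leaving out any single array kept it between 1.93 and 2.27, with adjusted p from 0.00235 to 0.0188.

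Gria3, an AMPA receptor subunit, went the other way. In 4 mm defects it was 3.87, 3.83 and 3.74 on the arrays of rats 10, 11 and 15, and 0.16, 0.06 and 0.21 on those of rats 12, 13 and 14. In 8 mm defects it ran from -1.57 to -0.29, with a median of -1.32. The 4 mm arrays thus fell into a high and a middle level, the high one on the arrays of high brain score, and both levels lay above every 8 mm array. The difference was -3.07 ± 0.76 (SE), adjusted p 0.0148. Without the 3 arrays it was -1.23 ± 0.87 (SE), adjusted p 0.653, and leaving out rat 10, 11 or 15 of the 4 mm group alone gave adjusted p of 0.0624, 0.0625 and 0.0508. A second Gria3 probe had a difference of -1.88.

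Gria1, a further AMPA subunit, fell with a fitted difference of -4.66 ± 1.04 (SE) and an adjusted p of 0.00765, but 3 of the 6 values of 8 mm defects were at the floor. On the 4 mm arrays it was 2.33, 2.79 and 2.96 for rats 10, 11 and 15 and between -1.02 and 0.70 for the others, and the adjusted p was 0.239 without the 3 and 0.0536 with low values raised to 0.25. Gria2 and the obligatory NMDA subunit Grin1 did not pass, with differences of -6.55 ± 2.33 (SE; adjusted p 0.117) and -3.70 ± 1.41 (SE; adjusted p 0.148). Gria2 was at the floor on 4 arrays of 8 mm and 1 of 4 mm defects and Grin1 on 3 of 8 mm, and their second probes differed by -6.39 and -0.77. Gria2 was 6.70, 6.75 and 6.72 on the 3 arrays of high brain score and at most 2.11 elsewhere. Grin2c, another NMDA subunit, showed the same split, with 5.97 to 6.87 on the 3 arrays and at most 2.56 on the other 9. Grin2b, the NMDA subunit typical of young neurons, differed by -0.53 ± 0.84 (SE), and the metabotropic receptor Grm2 by 0.69 ± 0.43 (SE), with overlapping groups in both cases. The median difference over the 24 subunits was -0.82, beside -0.20 over all genes, and -0.03 without the 3 arrays.

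**Figure D3:**
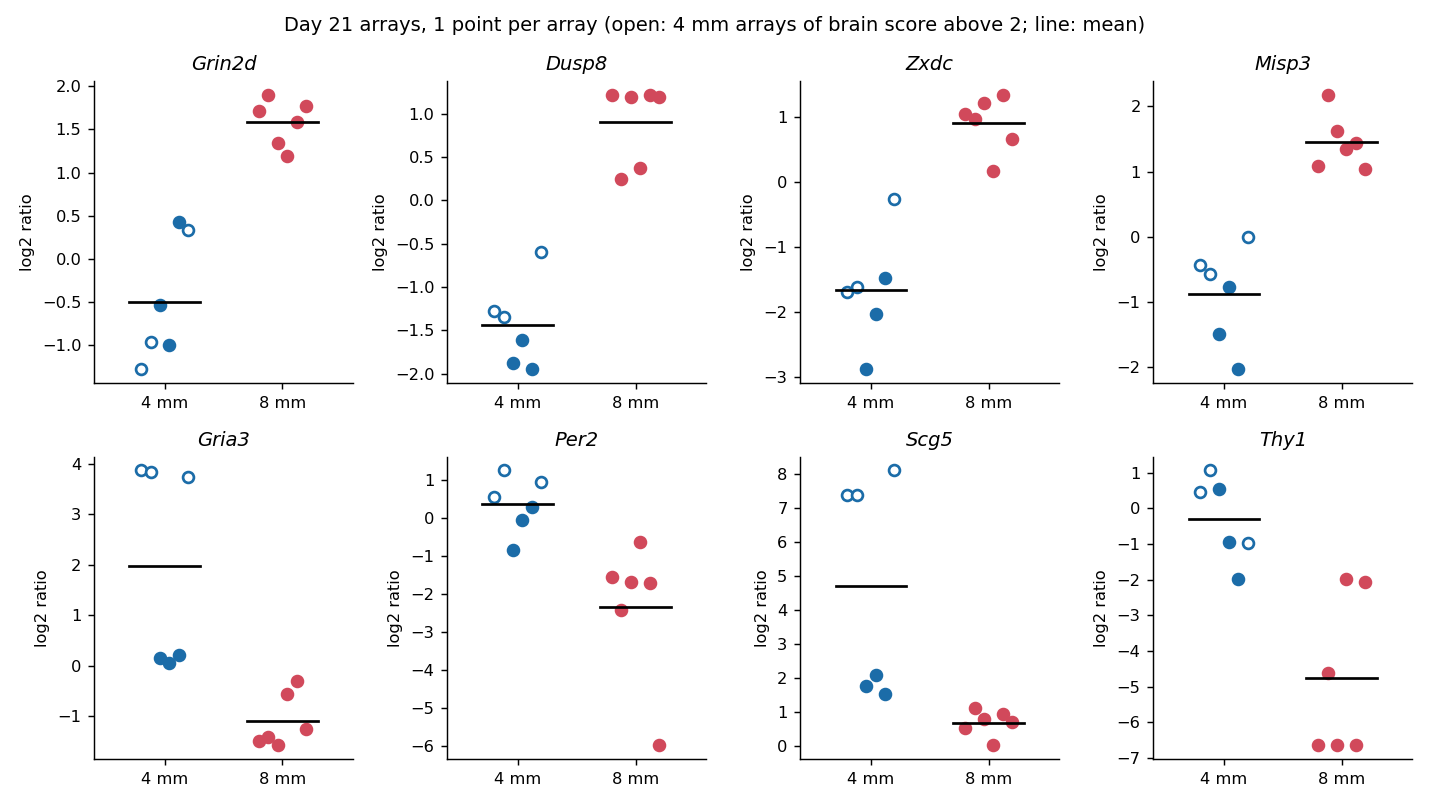
Log2 ratio (vertical axis) of 8 genes on each day 21 array, with open blue points for the 3 arrays of brain score above 2 among 4 mm defects, filled blue for the other 3, red for 8 mm, and a line at each mean. Grin2d, Dusp8, Zxdc and Misp3 are higher on all 6 arrays of 8 mm than on any of 4 mm. The open points of Dusp8 and Misp3 are the highest of the 4 mm points, nearest to 8 mm, and those of Gria3 (3.74 to 3.87) and Scg5 (7.39 to 8.11) lie far above the filled ones.

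Per2, a repressor of the circadian clock, was the 1 of 20 measured clock genes that passed the test, beside 2.4% of all genes. It ran from -0.84 to 1.24 in 4 mm defects (median 0.41) and from -5.98 to -0.64 in 8 mm defects (median -1.70). Only the highest 8 mm array, that of rat 13 at -0.64, reached into the 4 mm range, above rat 12 at -0.84. The means were 0.35 ± 0.74 (SD, n = 6) and -2.33 ± 1.87 (SD, n = 6), a difference of -2.69 ± 0.66 (SE) with an adjusted p of 0.0139. The lowest value, -5.98 for rat 15 of the 8 mm group, carried part of the mean: without that array the difference was -1.96 and the adjusted p 0.0912. On the 3 arrays of high brain score Per2 was 0.54, 1.24 and 0.94, the highest of its group, and without them the difference was -2.13 ± 0.81 (SE) with an adjusted p of 0.227. The other clock genes had small or scattered differences. Bmal1, which encodes the activator that Per2 restrains, differed by -0.32 ± 0.35 (SE), and Dbp, a gene driven by that activator, by -0.59 ± 0.33 (SE). Per1, the paralogue of Per2, differed by -1.08 ± 0.64 (SE), mostly through a floor value on the array of 8 mm rat 10, without which it was 0.06. Npas2, a partner of Bmal1 common in the forebrain, was 2.39 to 2.89 on the 3 arrays and at most 1.90 elsewhere. Rorb, a nuclear receptor with high expression in brain, was at the floor on 4 of 6 arrays of 8 mm defects and at 1.15 to 3.64 on the 3 arrays. On 4 mm rats 12 and 14 it was 0.77 and 1.15, and on rat 13 at the floor, so the 3 arrays did not stand apart. The kinase gene Csnk1e differed by -0.94 ± 0.35 (SE; adjusted p 0.13) and its other probe by 0.21, and Nr1d2, a clock repressor, by 2.41 ± 1.73 (SE) with 2 of the 4 mm arrays at the floor. The median over the 20 genes was -0.41, and 0.14 without the 3 arrays.

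Since Per2 was the clock gene that differed, its promoter is shown from RefSeq (GRCr8, chr9:99496944-99497243, minus strand), running from 250 bases before the gene start to 50 after it. Capitals mark the D-box TTATGTAA, whose first base lies 192 bases before the start, and the E-prime box CACGTT, at 62 bases before it.
Per2: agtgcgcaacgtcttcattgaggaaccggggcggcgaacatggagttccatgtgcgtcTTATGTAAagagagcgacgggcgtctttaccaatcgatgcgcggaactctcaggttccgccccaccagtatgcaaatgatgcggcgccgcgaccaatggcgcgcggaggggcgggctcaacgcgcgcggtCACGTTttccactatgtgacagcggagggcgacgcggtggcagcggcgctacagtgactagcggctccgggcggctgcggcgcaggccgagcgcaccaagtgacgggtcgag
D-boxes bind factors such as Dbp, and E-boxes and E-prime boxes the Clock and Bmal1 pair. Searched on both strands, the D-box was in the windows of 0.893% of 33469 promoters of this length, the E-prime box in 4.83%, and the full E-box CACGTG in 6.42%. Promoters of 18 of the 20 measured clock genes were matched by symbol, and 1 held this D-box, 3 the E-prime box and 3 the E-box; no motif searched overlaps another in the Per2 window. A match of letters is a description of the window and was not tied to the array values.

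Among the 10 genes with the largest increases in 8 mm defects, 1 (Fxyd5) was lower on each of the 3 arrays of high brain score than on any of the other 9, and 4 were also called without those arrays. Zxdc, which encodes a zinc finger cofactor of MHC class II transcription, ran from -2.89 to -0.26 in 4 mm and from 0.18 to 1.35 in 8 mm defects, a difference of 2.57 ± 0.58 (SE) with an adjusted p of 0.00857. Dusp8, a phosphatase of MAP kinases, ran from -1.95 to -0.60 and from 0.25 to 1.22, and differed by 2.35 ± 0.53 (SE), adjusted p 0.00857. Misp3 ran from -2.04 to 0.00 and from 1.04 to 2.18 and differed by 2.34 ± 0.54 (SE), adjusted p 0.0102. In these 3 genes no 4 mm array reached an 8 mm array. Without the 3 arrays they were at 3.04, 2.72 and 2.89 with adjusted p of 0.0137, 0.0185 and 0.012. Dusp8 alone among them passed in the fit of the 12 arrays by themselves, with an adjusted p of 0.0358. Plekho2 was the other gene of the 10 largest increases called both ways, at 1.88 with all arrays and 2.37 without the 3.

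The remaining large increases were called with all arrays only. Fam229a rose by 2.20 ± 0.47 (SE; adjusted p 0.00496), and its groups did not overlap, at -1.11 to 0.64 and 1.37 to 2.53. Cfi, the gene of complement factor I, which cleaves the activated complement protein C3b, rose by 1.96 ± 0.45 (SE; adjusted p 0.0094), from a range of -3.32 to -1.09 to one of -0.95 to 1.08. Sema3f, an axon guidance ligand that also acts on vessels, rose by 1.92 ± 0.46 (SE; adjusted p 0.0118), with overlap at 1 array of 8 mm, rat 10 at -0.67. Without the 3 arrays these 3 genes stood at 1.89, 1.90 and 1.90 with adjusted p of 0.0911, 0.0651 and 0.0776, and why the calls were lost was not tested. Hes7, a transcriptional repressor known from somite segmentation, rose by 1.96, and Fxyd5, a regulator of the sodium pump, by 1.85, with adjusted p of 0.0276 and 0.0477. Fxyd5 lost its call on leaving out any of 8 single arrays (adjusted p up to 0.173, without 4 mm rat 15), and Hes7 without 4 mm rat 10 or 11 or 8 mm rat 11 (0.0849, 0.107 and 0.0561). Smaller increases called both ways were those of Xab2 (1.45), a factor of splicing and repair, Ring1 (1.75), a Polycomb subunit, Gprin1 (1.56), linked to neurite outgrowth, and Parm1 (1.16). Parm1 and Ring1 lost the call when single arrays were left out, with adjusted p of 0.163 without 4 mm rat 13 and 0.186 without 4 mm rat 12, and of 0.0507 and 0.194 with values under 0.25 raised to 0.25. A second probe of Parm1 differed by 0.21 and one of Fxyd5 by 0.95, so the probes of these genes disagree in size.

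Among the 10 genes with the largest decreases in 8 mm defects, 7 were higher on each of the 3 arrays of high brain score than on any of the other 9, and 0 of the 10 were called without those arrays. Of all genes 7.25% showed this split, but selection for higher 4 mm values favours it among the 10. With the brain score as a covariate Per2, Galnt18, Sfxn1 and Sf3b2 stayed called, with adjusted p of 0.0405, 0.038, 0.00733 and 0.00695. The others of the 10 lost the call in that fit. Scg5, which encodes a chaperone of prohormone convertase in secretory granules, was 7.40, 7.39 and 8.11 on the arrays of 4 mm rats 10, 11 and 15, between 1.52 and 2.09 on the other 3, and between 0.01 and 1.10 in 8 mm defects. Its difference was -4.04 ± 1.19 (SE) with an adjusted p of 0.0483, and -1.11 without the 3 arrays (adjusted p 0.836). It lost the call on leaving out any of 9 single arrays, with adjusted p up to 0.151 without 4 mm rat 11. Camk2g, a subunit of calmodulin kinase II, was 1.96 to 2.36 on the 3 arrays and at most -0.21 elsewhere, with a difference of -2.29 ± 0.55 (SE; adjusted p 0.0132), and of -0.84 without them (adjusted p 0.68). It also lost the call without 4 mm rat 11 or 15 or 8 mm rat 15 (adjusted p 0.0608, 0.0509 and 0.118). Pbld1 was 1.56, 2.01 and 1.82 on the 3 arrays and fell by 2.55 (adjusted p 0.0327); 5 single arrays ended its call, with adjusted p up to 0.115 without 8 mm rat 10.

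Galnt18, an enzyme that starts mucin-type glycosylation, was lower in every 8 mm array (-2.60 to -0.99) than in any 4 mm array (-0.41 to 1.32). Its difference was -2.42 ± 0.59 (SE; adjusted p 0.0145), and no single array ended the call, but its adjusted p without the 3 arrays was 0.203. Sfxn1, a mitochondrial serine transporter, had 4 mm values of -1.07 to 0.95 and 8 mm values of -5.92 to 0.67, and its difference was -2.38 ± 0.58 (SE; adjusted p 0.0132) and -2.60 without the 3 arrays (adjusted p 0.0545). Tnnt2, the cardiac troponin T gene, differed by -2.37, Sf3b2, a splicing factor gene, by -2.34, and Fam136a by -2.29, with adjusted p of 0.0111, 0.0102 and 0.0311 and overlapping groups. Each of these 4 lost its call without a single 8 mm array, though the difference stayed negative. Without rat 12 Sfxn1 was at -1.77 (adjusted p 0.0672), and without rat 10 Tnnt2 was at -1.88 (adjusted p 0.0523). Without rat 11 Sf3b2 was at -1.70 (adjusted p 0.0685) and Fam136a at -1.81 (adjusted p 0.129). Fam136a also lost the call without 4 mm rat 10 or 11 (0.0729 and 0.0746) or 8 mm rat 12 or 13 (0.0534 and 0.0572). A second probe of Sf3b2 differed by -0.32 and one of Fam136a by -0.35, so the probes of these genes disagree in size. With values under 0.25 raised to 0.25, Sfxn1, Sf3b2 and Fam136a lost the call (adjusted p 0.22, 0.135 and 0.0837).

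Of 546 genes measured in 34 lists of cell types and pathways, 11 (2.01%) were called, close to the 2.4% of all genes. Besides Grin2d, Gria3, Gria1 and Per2 they were Snap25, Cplx2, Thy1, Mmp19, Sall1, Siglech and Cldn5. Snap25 and Cplx2, parts of the machinery of synaptic vesicle release, were the 2 of 21 neuron markers called. Snap25 was 5.65 to 6.23 on the 3 arrays of high brain score, 2.40 to 3.40 on the other 4 mm arrays and at most 1.94 in 8 mm defects, where 3 arrays were at the floor, with an adjusted p of 0.0307. It lost the call without 4 mm rat 10, 11 or 15 or 8 mm rat 11, 12 or 14, with adjusted p from 0.0578 to 0.0775. Cplx2 was 2.89 to 3.30 on the 3 arrays, -0.73 to 0.92 on the other 4 mm arrays and -0.05 or less in 8 mm defects (adjusted p 0.0094). Their adjusted p were 0.31 and 0.31 without the 3 arrays. Syt1, the calcium sensor of vesicle release, and Eno2, the neuronal enolase, did not pass, at -6.25 ± 2.17 (SE; adjusted p 0.104) and -1.57 ± 0.57 (SE; adjusted p 0.129). The Syt1 probe used was at the floor on 5 of 6 arrays of 8 mm defects, and its other 2 probes differed by -0.46 and -0.86. The astrocyte genes Gfap and Aqp4 had differences of -3.71 and -3.69 (adjusted p 0.174 and 0.296), and Mbp of -1.90 (adjusted p 0.446). The median difference was -2.86 over the neuron list, -1.42 over the astrocyte list and -0.91 over the myelin list, and 0.16, 0.41 and 0.26 without the 3 arrays. The 3 arrays were set apart by the score over these same lists, so a shift of this kind is built in.

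Thy1 was called with and without the 3 arrays. Thy1, a surface protein of fibroblasts, mesenchymal progenitors, T cells and neurons, ran from -1.99 to 1.06 in 4 mm defects and from the floor to -1.97 in 8 mm defects, where rats 10, 12 and 14 were at the floor. Only rat 13 of the 8 mm group, at -1.97, touched the 4 mm range. The fitted difference was -4.46 ± 0.59 (SE) with an adjusted p of 6.99e-07, and -3.96 without the 3 arrays with an adjusted p of 0.000689. This SE borrows the spread of all 14 groups. At day 21 itself the SD was 1.17 in 4 mm and 2.26 in 8 mm defects (n = 6 each). Thy1 was not called in the fit of the 12 arrays alone. Its size depended on the floor: with values under 0.25 raised to 0.25 the difference was -1.69, with an adjusted p of 0.0171. On the 3 arrays Thy1 was 0.45, 1.06 and -0.96, within the range of the other 4 mm arrays for rat 10 and rat 15. Siglech, a lectin of microglia and plasmacytoid dendritic cells, rose in 8 mm defects by 3.07 ± 0.56 (SE), with an adjusted p of 0.000815. The rise was 3.13 without the 3 arrays (adjusted p 0.00498) and 1.85 with low values raised (adjusted p 0.0119). Its 8 mm values were -0.44 to 1.76, and 1 of the 4 mm arrays was at the floor. The day 21 SDs of Siglech were 2.55 in 4 mm and 0.89 in 8 mm defects, and it was not called in the fit of the 12 arrays alone. Mmp19, a matrix metalloproteinase gene, was at the floor on 5 of 6 arrays of 8 mm defects and between -2.24 and 0.52 in 4 mm defects (adjusted p 0.00837; 0.0994 without the 3). Its other probe differed by 0.16, so the 2 probes disagree, and with low values raised its adjusted p was 0.619. Sall1, a transcription factor of microglia and kidney progenitors, was at the floor on 4 of 6 arrays of 8 mm defects but reached 3.38 on that of rat 11, and its call (adjusted p 0.0482) ended on leaving out any of 9 single arrays, with values up to 0.124 without 8 mm rat 15, and with low values raised (0.252). Cldn5, the endothelial tight junction gene, ran from 0.55 to 2.05 in 4 mm and from -1.05 to 0.44 in 8 mm defects without overlap and fell by 1.63 (-1.63 ± 0.48, SE; adjusted p 0.0454); it was 1.94, 2.05 and 2.03 on the 3 arrays, and without them its adjusted p was 0.56. Leaving out 4 mm rat 10, 11 or 15 or 8 mm rat 10, 12 or 15 ended its call, with adjusted p from 0.0667 to 0.12.

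Most bone matrix genes had a positive difference, and none passed the test with all 12 arrays. Of 22 measured genes of matrix and mineralization 19 had a difference above 0, beside 41.1% of all genes, 0 were called, and the median was 0.66. When the 3 arrays were left out, 15 of the 22 were above 0, beside 40.9% of all genes, with a median of 0.31, and 1 was called. Bglap, the gene of osteocalcin, had 4 mm values of 1.20 to 6.35 and 8 mm values of 4.82 to 7.17, with means of 4.49 ± 1.79 (SD, n = 6) and 6.21 ± 0.81 (SD, n = 6), and the difference of 1.72 ± 1.06 (SE) had an adjusted p of 0.445. The lowest 4 mm value was that of rat 10, an array of high brain score. Ibsp, which encodes bone sialoprotein, was also lowest on that array, at -2.92, and differed by 1.36 ± 1.19 (SE). Col1a1, the main collagen of bone, ran from -0.96 to 0.68 and from 0.70 to 1.42 with no overlap. Its difference of 1.17 ± 0.39 (SE) had an adjusted p of 0.0893, and was 1.18 without the 3 arrays. The other 2 Col1a1 probes differed by 1.40 and 0.20, so the probes disagree in size, and Col1a2 differed by 0.21 ± 0.41 (SE). Pth1r, the parathyroid hormone receptor of osteoblasts, also did not overlap, at -1.55 to -0.21 and 0.19 to 0.93, with a difference of 1.34 ± 0.48 (SE) and an adjusted p of 0.114. Alpl, the alkaline phosphatase needed for mineral, and Dmp1, a matrix protein of osteocytes, differed by 0.74 ± 1.03 (SE) and 0.59 ± 1.11 (SE). Mepe, a matrix protein of osteocytes, had 2 of the 4 mm arrays at the floor and all 8 mm values between -1.18 and 2.10; its adjusted p was 0.0831, and 0.0178 without the 3 arrays, when 2 of the 3 remaining 4 mm arrays were at the floor. Of 19 cartilage genes 14 were above 0, with a median of 0.80, and 1 was called without the 3 arrays: Acan, the aggrecan gene, which was then at the floor on all 3 remaining 4 mm arrays. Tnc, a glycoprotein gene of wound matrix, passed likewise without the 3 arrays (adjusted p 0.00597) and not with them (0.0574); 2 of the 3 remaining 4 mm values were at the floor, and its other probe differed by 0.65.

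Blood and marrow lists were low on 2 of the 3 arrays of high brain score. All 12 erythroid genes had a difference above 0 with a median of 0.96, 0 were called, and 7 of 12 were above 0 without the 3 arrays, with a median of 0.07. The erythroid list level was -0.94 and -0.97 on 4 mm rats 10 and 11, and between 0.78 and 1.90 on the other 10 arrays of day 21. Of 15 neutrophil genes 14 were above 0, with a median of 1.47 that became 0.46 without the 3 arrays; the list level was -3.62 and -3.05 on 4 mm rats 10 and 11 and between -1.66 and 1.42 on the others. In the T and natural killer cell list the median of 0.68 turned to -0.33. The medians of the osteoclast list (0.11) and of the cytokine and chemokine list (0.13) turned to -0.26 and -0.30. Lists with medians of one sign both ways included the endothelium (-0.49 and -0.69), adipocyte (-0.45 and -0.82) and interferon response (0.76 and 0.43) lists, of which Cldn5 was the single member called. The voltage-gated channel list went from -2.30 to -0.13.

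**Figure D4:**
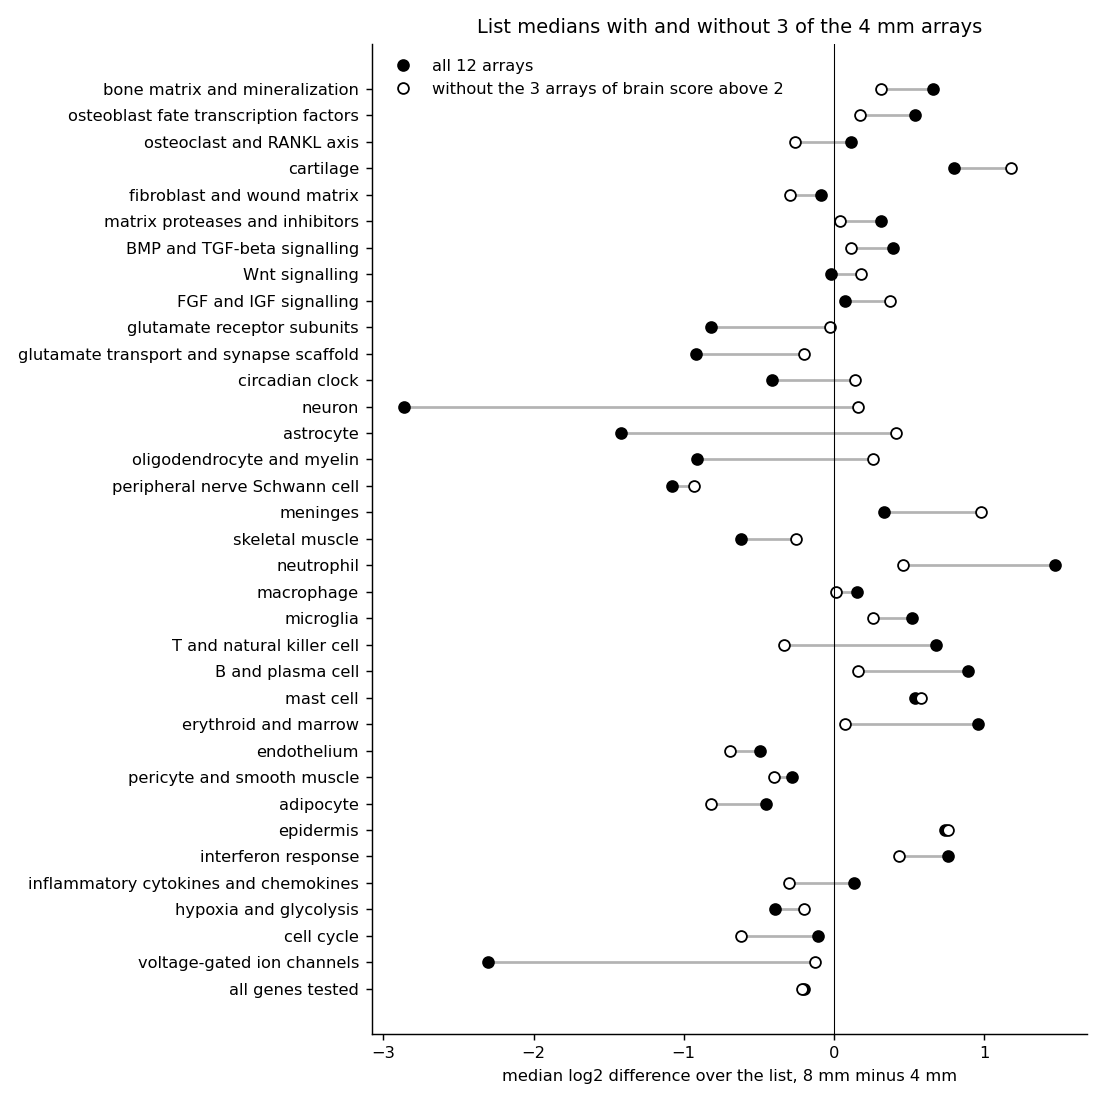
Median log2 difference, 8 mm minus 4 mm at day 21, over the measured members of 34 lists and over all genes (horizontal axis), with all 12 arrays (filled) and without the 3 arrays of brain score above 2 (open). The neuron median moves from -2.86 to 0.16 and the neutrophil median from 1.47 to 0.46, while the median over all genes stays near -0.20. The brain score includes the neuron, astrocyte and myelin lists, so a shift of their medians is built in.

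The size effect at day 21 was set against the mean size effect of days 1, 3, 5, 7, 10 and 14 in the same model. It differed for 240 of 15975 genes (1.5%), 46 towards higher (0.288%) and 194 towards lower (1.21%) in 8 mm defects at day 21, and for 103 without the 3 arrays (0.645%), of which 70 were towards higher. With quantile normalization 10 genes passed, 8 towards higher and 2 towards lower, and with each array centred 524 genes passed, 155 towards higher and 369 towards lower, so the balance of directions depends on the scaling. Both comparisons use the same day 21 arrays. The arrays of other days with a brain score above 2, of which 1 was of 4 mm and the rest of 8 mm defects, stayed in the reference. They also stayed in it when the 3 day 21 arrays were left out, and their part in these differences was not tested. Grin2d was 1.96 ± 0.48 (SE) above its mean over the other days, with an adjusted p of 0.0226, and 1.83 without the 3 arrays, with an adjusted p of 0.137. Its own size difference was -1.18 ± 0.32 (SE) at day 5, 1.07 ± 0.49 (SE) at day 7, 0.16 ± 0.50 (SE) at day 10 and 1.26 ± 0.47 (SE) at day 14, none of which passed in its day. Gria3 and Per2 did not pass, at -2.86 (adjusted p 0.0518) and -2.32 (adjusted p 0.0745). In 4 mm defects Gria3 had 1 array at 4.63 on day 14, when the day's mean was 1.37 ± 1.92 (SD, n = 5). Per2 in 8 mm defects was between -0.79 and 0.18 on average from day 3 to day 14, against -1.84 ± 1.74 (SD, n = 5) at day 1 and -2.33 ± 1.87 (SD, n = 6) at day 21.

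**Figure D5:**
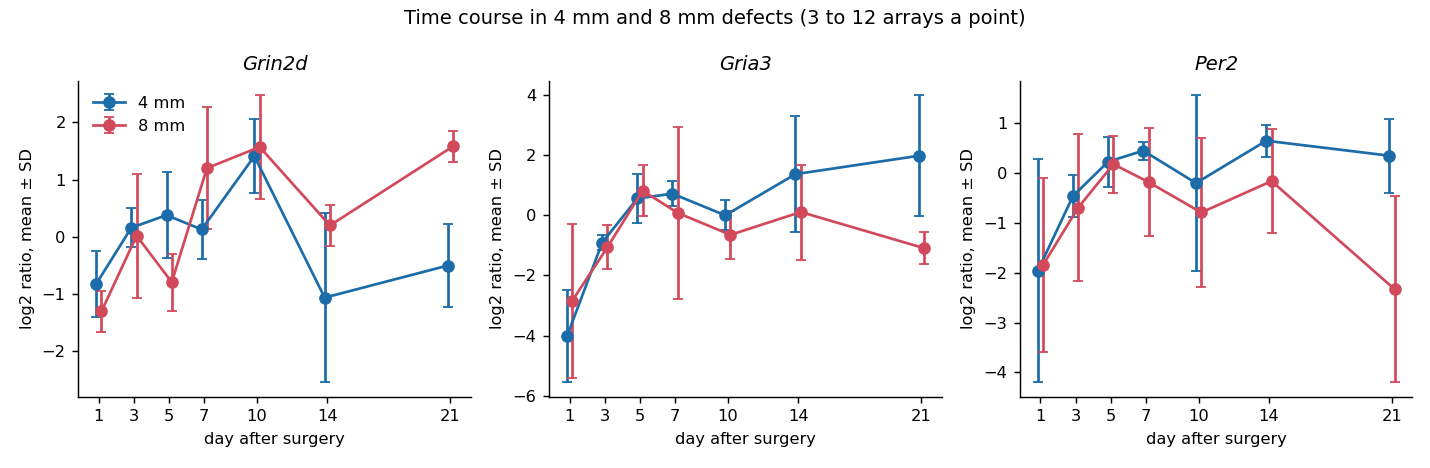
Mean log2 ratio with SD (vertical axis) of Grin2d, Gria3 and Per2 against the day after surgery (horizontal axis) in 4 mm (blue) and 8 mm (red) defects, with 3 to 12 arrays a point. At day 21 Grin2d is at 1.58 in 8 mm and -0.50 in 4 mm defects, while Gria3 and Per2 are higher in 4 mm defects, at 1.98 and 0.35.

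The largest differences from the other days above the floor, in the direction of higher at day 21, were those of Misp3 (2.37), Zxdc (2.33), Acot11 (2.30), Fxyd5 (2.19) and Dusp8 (2.12). Acot11, an acyl-CoA thioesterase, was not called at day 21 itself, at 1.39 ± 0.60 (SE) with an adjusted p of 0.215. The largest in the other direction were Scg5 (-4.70), Ckmt1 (-3.31), a mitochondrial creatine kinase, Camk2g (-2.42), Klc1 (-2.37), a kinesin light chain, and Agpat3 (-2.35), an acyltransferase of phospholipid synthesis. All 5 of the latter were higher on each of the 3 arrays of high brain score than on any other day 21 array. Ckmt1, for one, was 4.29 to 5.14 on those arrays and at most 1.79 on the rest. These 5 were picked for a large fall at day 21, which favours such a split. Second probes of Scg5, Klc1 and Agpat3 differed by -2.88, -0.99 and -0.60 at day 21, against -4.04, -2.23 and -1.96 for the probes used. Against day 14 alone the value of Zxdc was -0.04, Acot11 still passed at 3.22 (adjusted p 0.0281), and the other 8 of these 10 genes kept their direction but lost the call, with adjusted p from 0.0677 (Camk2g) to 0.868 (Dusp8). Calls of 9 of these 10 genes, all but Misp3, ended on leaving out 1 or more single arrays.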

How the data were processed

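RNA of 93 defects was hybridised with Cy3 to 1-colour Agilent whole-genome rat arrays, per the labels' protocols. The authors deposited linear ratios with a floor of 0.01; for background correction, scaling and reference the sources used here give no method, so signal over background cannot be given and the number of arrays limits precision. Gene symbols came from the platform annotation (20932 of 41090 probes, 20158 unnamed here), of which 17424 probes were matched to RefSeq names of GRCr8. For 3880 of 15975 genes with several probes, the most variable probe (by interquartile range) was taken.

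The design had assumed log values; log2 of the ratio was taken with no pseudocount. A model of 14 groups (day and size, from the titles) was fitted over all 93 arrays with limma 3.58.1 in R 4.3.3 (prior df 1.9, residual df 79). Adjusted p-values are Benjamini-Hochberg values over all 15975 genes from two-sided moderated tests, with a threshold of 0.05. The script was tested on simulated data. Replicates are separate defects, whose relation to animals is unknown.

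Named were the 10 largest increases and decreases above the floor on all 12 arrays, called list members, members of the glutamate receptor, clock, bone matrix and brain lists, and, against the other days, the 5 largest each way; Xab2, Gprin1, Parm1, Ring1, Acan and Tnc were chosen after their values were seen. Members, lists and tests were chosen with earlier results of these data known. Alternatives were 2 scalings, 2 gene filters, raising values under 0.25, the mean of probes, day 21 alone, array weights, a rat number block, the brain score as covariate or limit, day 14 alone as reference, and leaving out each array.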

Additional observations from a re-analysis of the deposited data

Results flagged for a closer look

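Among the genes named here, 28 had a size effect at day 21 that differed from the mean of the earlier days by the test of that difference. Of all genes 1.5% passed that test. The named genes include the 5 largest each way in the same test, and many others were picked for their difference at day 21, which is part of it. The count was thus favoured by selection and is no separate support. Towards higher in 8 mm defects these were Or11j4 (8.59), Siglech (3.23), Misp3 (2.37), Zxdc (2.33), Acot11 (2.30), Fxyd5 (2.19), Dusp8 (2.12), Grin2d (1.96), Cfi (1.88), Ring1 (1.86), Sema3f (1.82) and Xab2 (1.32). Towards lower they were Snap25 (-9.27), Ippk (-8.85), Mef2a (-7.58), Svep1 (-6.78), Sall1 (-5.69), Gria1 (-5.17), Thy1 (-4.76), Scg5 (-4.70), Mmp19 (-4.30), Cplx2 (-4.16), Ckmt1 (-3.31), Camk2g (-2.42), Klc1 (-2.37), Agpat3 (-2.35), Sfxn1 (-2.28) and Sf3b2 (-2.18). Their adjusted p ran from 1.18e-06 (Thy1) to 0.0463 (Acot11). Where day 21 values lay at the floor, the size of the value depends on where the floor lies and is no measured fold. This holds for Ippk, Mef2a and Svep1 (all 6 arrays of 8 mm), Mmp19 (5 of 6), Sall1 (4), Snap25, Gria1 and Thy1 (3 each), Cplx2 (2), and in 4 mm defects for Or11j4 (5) and Siglech (1).

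Single arrays stood far from their group in 18 of 136 groups of 6 values examined. Chance alone gives about 1 in 20 for values without ties, a rate that does not hold for the 16 groups with 2 or more values at the floor. Of the 18, 3 were in such groups: Mmp19 and Syt1 in 8 mm and Or11j4 in 4 mm defects, where the other 5 arrays were all at the floor. In 8 mm defects rat 15 was low for Per2 (-5.98), Camk2g (-6.01) and Acan (-6.45). Rat 11 was low for Acot11 (1.22) and Col1a1 (0.70) and high for Xab2 (2.74). Rat 10 was at the floor for Per1 (-6.64) and high for Mmp19 (-0.49), and rat 14 was high for Syt1 (2.60). In 4 mm defects rat 15 was low for Fxyd5 (-3.02) and in the median level of its array (-0.47), rat 10 was low for Ibsp (-2.92) and the one array above the floor for Or11j4 (-2.64). Rat 13 was low for Grin2b (-1.71), Parm1 (-2.61) and Rorb (-6.64), rat 12 for Syt1 (-6.64), and rat 14 was high for Sfxn1 (0.95).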

How the results depend on the processing

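The count of 383 genes called at day 21 became 742 with each array centred, 146 without the 3 arrays of brain score above 2, 87 when the more variable 0.5 of the genes was tested, 69 when the genes above the floor on all day 21 arrays were tested, 11 after quantile normalization and 6 with the day 21 arrays alone. The counts of 146 and 6 rest on fewer samples, and those of 87 and 69 on fewer genes tested. Other causes of these changes were not tested. Leaving out single arrays gave 193 (without 4 mm rat 11) to 527 (without 8 mm rat 13), and 218 without 4 mm rat 10. The count of 240 against the other days became 524 with centring, 366 with array weights, 155 with low values raised, 132 with the brain score as covariate, 103 without the 3 arrays and 10 after quantile normalization, and 73 to 342 on leaving out single arrays (73 without 4 mm rat 11, 84 without rat 10, 157 without rat 15). Of 39 named genes called at day 21, 36 stayed past the threshold with centring, 24 with the covariate, 13 without the 3 arrays, 6 with day 21 alone and 1 after quantile normalization, Thy1, and 0 of them reversed under any alternative run. The alternatives use the arrays on which these genes were called, which favours an unchanged direction.

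The rat numbers did not pair the groups: deviations of same-numbered arrays correlated between -0.17 and 0.0623, 1 of 6 arrays matched its own number best, and the fit with the number as replicate block called 5 genes. Apart from that of Zxdc against the other days, differences that reversed belonged to genes that had not passed. With the brain score as covariate Grin2c was 0.18, Stmn3 2.21 and Mbp 0.24. Without the 3 arrays Stmn3 was 1.36, Mbp 0.62, Eno2 0.16 and Npas2 0.04. Per1 lay between -1.44 and 0.06 on leaving out single arrays, and against day 14 alone Zxdc was -0.04; the causes were not tested.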

Other observations

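Of 15975 genes, 4 were at the floor on all 6 arrays of 8 mm defects and above it on all 6 of 4 mm defects with the probe used, and 0 the other way round; they were picked after their values were seen. The second probes of Mef2a and Svep1 were not at the floor throughout, with 8 mm means of -2.42 and -2.97 and differences of -1.34 and -2.27. Mef2a, a transcription factor gene of muscle and neurons, was between 0.81 and 3.20 in 4 mm defects, and Ippk, an inositol phosphate kinase gene, between -0.24 and 1.90. Svep1, which encodes a large extracellular matrix protein, was between -0.45 and 2.25, and Or1a1b, an olfactory receptor gene, between 0.15 and 4.63. Their adjusted p at day 21 were 0.00841, 0.00329, 0.0117 and 0.0219, and the sizes of their differences are set by where the floor lies. With values under 0.25 raised to 0.25 the adjusted p was 0.031 for Ippk, 0.017 for Mef2a and 0.0395 for Or1a1b, and Svep1 lost the call (0.105). On the 45 arrays of 8 mm defects at other days, Ippk was at the floor on 5, Svep1 on 11, Mef2a on 14 and Or1a1b on 23. Or11j4, another olfactory receptor gene, was at the floor on 5 of 6 arrays of 4 mm defects and between 1.61 and 3.04 in 8 mm defects, with an adjusted p of 0.00317. These 5 genes and Dusp8 were the 6 called in the fit of the day 21 arrays alone. Of the 297 lower genes 236 had at least 1 array of 8 mm defects at the floor, and of the 86 higher genes 48 had at least 1 array of 4 mm defects there.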
